A study of Mus musculus with 4 samples.

Results

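The promoters described here belong to 9 genes that share the name Zfp: *Zfp105*, *Zfp113*, *Zfp142*, *Zfp148*, *Zfp35*, *Zfp41*, *Zfp445*, *Zfp62* and *Zfp768*. They were selected on the measured data: each had a peak of tagged Zfp574 within 500 bp of one of its transcription start sites (TSSs). Of 391 Zfp-named protein-coding genes in the mouse annotation, these 9 had such a peak in the list made from both replicates together (the merged list). The peaks that chose the genes are therefore given as a description, with no test. The 9 promoters carried 10 of the 140 merged peaks, because *Zfp41* had 2.

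Zfp574 binding was mapped by Cut&Run. In this assay a nuclease is brought by an antibody to the protein on chromatin, and the DNA it cuts free there is sequenced. The tagged line was AID-Zfp574, mouse embryonic stem (mES) cells in which the N terminus of Zfp574 carried a V5 epitope and an auxin-inducible degron (AID), a tag through which auxin triggers loss of the protein. It was made by knock-in from the OsTir1 parental line, a diploid line of originally haploid cells (HMSc2) that expresses the plant receptor OsTir1 and mCherry from the EF1a promoter. AID-Zfp574 was measured in 2 biological replicates and the parental line, which has no V5 tag and served as the control, in 2.

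All 4 samples were treated with the same V5-tag antibody, and the names of the peaks mark the tagged samples as 0 IAA, that is, without auxin. Clones were picked and genotyped when the tagged line was made, and the number of clones behind the 2 replicates is not given in the sources used here. The lists analysed were 3: replicate 1 (80 peaks), replicate 2 (96 peaks) and merged (140 peaks). The parental line entered the lists as background, and the merged list pools both replicates, so it is not independent of the other two. Solved from the lists, the tagged replicates held 10.2 M and 10.5 M reads, and 20.6 M when merged, if each read covers 50 bp. A longer extension of the reads would give proportionally fewer.

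Zinc-finger proteins of the C2H2 type fold short loops around a zinc ion held by cysteines and histidines, and several fingers in a row read a DNA sequence. They form one of the largest protein families of mammals, and many members repress genes or repeats. Zfp574 is itself such a protein: its coding sequence held 18 matches to the C2H2 pattern (C, 2 to 4 residues, C, 12 residues, H, 3 to 5 residues, H) in 900 residues. Among the genes it was mapped to, Zfp445 is known for protecting imprinted loci in the early embryo, and Zfp148, also called ZBP-89, for binding GC-rich promoters.

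Short sequences shared by the bound sites were sought without the 9 genes. Within 50 bp of the 130 other merged summits, 6-mers were ranked by their excess over promoters in general, in percentage points. The leading ones were ATAGAG and CTAGAG (both strands searched). ATAGAG lay in 28.5% of those summit windows and in 2.70% of windows on the TSSs of 21853 protein-coding genes, and CTAGAG in 30% and 4.75%. These 6-mers share the letters TAGAG. In the 50 other peaks listed in both replicates CCATAG led, and CTAGAG was the next that was not a shift of it. Reading the sequences of the 9 promoters then brought up a longer run with 3 spellings, ACCATAGAG, ACCATCGAG and ACCACCGAG. The first of them contains ATAGAG. Because the run was noticed at the promoters described here, its counts in them are a description. Within 100 bp of a summit or TSS, at least 1 spelling was found at 4 of the 9 genes, at 24.6% of the other 130 summits and at 0.554% of coding TSSs. In the 32851 promoters of 300 bases that RefSeq annotates, the share was 0.603%.

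Stretches around these matches are shown for 7 of the genes so that the letters can be read in place. *Zfp35* also held matches, described below without its sequence, and not every 6-mer of *Zfp142* is shown. *Zfp445* held none in its peak or the 50 bp on each side, and in such windows no single spelling was found at every gene. Sequence is from the GRCm38 (mm10) assembly of RefSeq, 5′ to 3′ on the strand stated, and capitals mark matches to the 6-mers or the 9-base run. Stretches that touch an annotated UTR are limited to 30 bases.
Zfp142, chr1:74587992-74588021, minus strand (the gene's): ggACCATAGAGatgcagctcccgccagccc
Zfp142, chr1:74588116-74588145, minus strand: aaACCATAGAGtagcacgggccttgaagag
Zfp142, chr1:74588190-74588219, plus strand: gaACCATCGAGaattgcagggaagagtggc
Zfp142, chr1:74588304-74588333, plus strand: aaACCATCGAGtgtgagggccagagagtca
Zfp113, chr5:138155790-138155875, minus strand (the gene's): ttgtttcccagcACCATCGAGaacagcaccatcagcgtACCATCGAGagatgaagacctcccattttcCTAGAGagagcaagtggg
Zfp62, chr11:49203408-49203437, plus strand (the gene's): cgACCATCGAGtcagtcctccagcttccca
Zfp105, chr9:122922999-122923028, plus strand (the gene's): ccccgtcgattcCTAGAGaggccggcctgc
Zfp148, chr16:33380779-33380808, minus strand (opposite to the gene): gacatggcgcggCTAGAGcgtcgccgcggt
Zfp768, chr7:127345654-127345683, minus strand (the gene's): ctccagccgctcCTAGAGaggccgcggcgc

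*Zfp41* held a row of TAGAG copies, shown with the bases around them. In its upstream peak TAGAG occurred 4 times on the strand of the gene and 0 times on the other. The copies followed each other at 83, 82 and 79 bp. Capitals mark TAGAG and, where it was matched in full, the 9-base run before it.
Zfp41 copy 1, chr15:75616405-75616464, plus strand: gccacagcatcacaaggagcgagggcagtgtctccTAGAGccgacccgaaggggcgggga
Zfp41 copy 2, chr15:75616488-75616547, plus strand: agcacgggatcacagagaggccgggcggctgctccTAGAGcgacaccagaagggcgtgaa
Zfp41 copy 3, chr15:75616570-75616629, plus strand: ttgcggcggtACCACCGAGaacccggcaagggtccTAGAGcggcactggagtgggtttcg
Zfp41 copy 4, chr15:75616659-75616688, plus strand: agcACCACCGAGaggccggggaaggTAGAG

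The merged peaks were close to the TSSs. In the merged list 7 of the 10 summits lay within 50 bp of a TSS of their gene (70%), beside 61 of the 138 merged summits that lay within 500 bp of any TSS (44.2%). The median distance regardless of side was 30.5 bp at the 9 genes and 67.5 bp over those 138. Of the summits 6 were upstream and 4 downstream, from 129 bp upstream at *Zfp768* to 150 bp downstream at *Zfp41*. In 7 of the genes a TSS lay inside a merged peak, and in the other two, *Zfp148* and *Zfp768*, the peak ended 7 and 80 bp short of one. The next Zfp-named protein-coding gene outside the rule was *Zfp647*, whose nearest merged peak was 18.1 kb from its TSS.

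**Figure D1:**
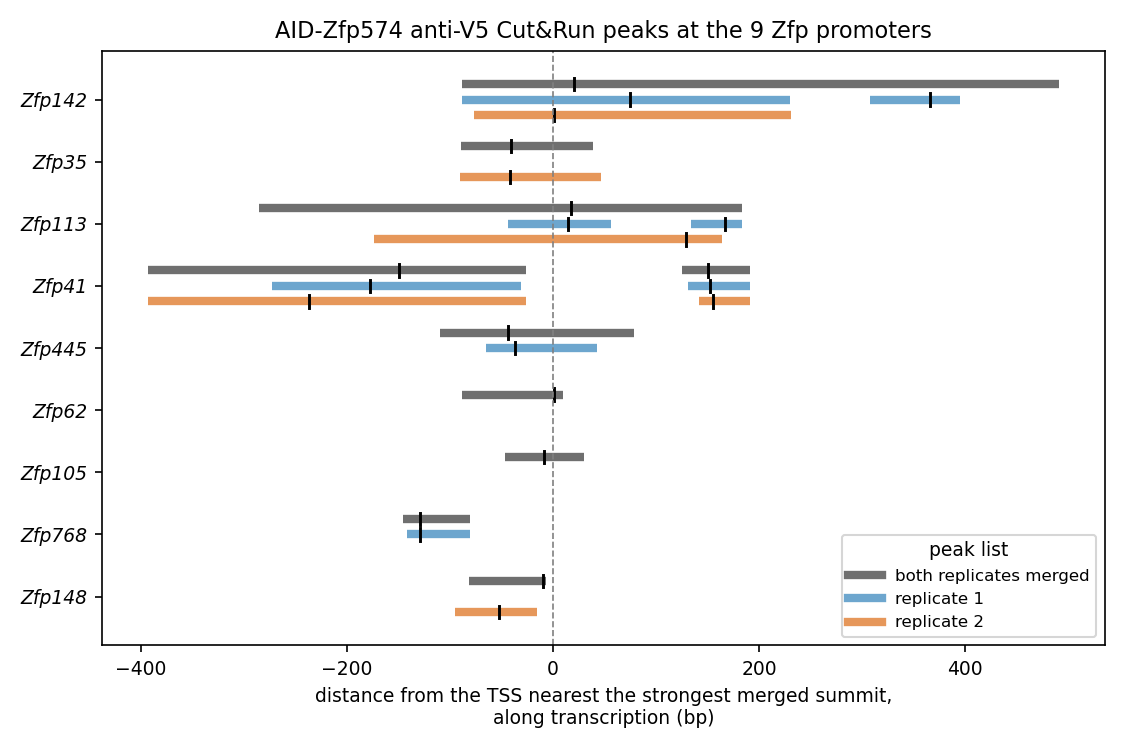
Peaks at the 9 promoters in the merged, replicate 1 and replicate 2 lists. The x axis is the distance in bp from the TSS nearest the strongest merged summit of each gene, positive along transcription, bars are peaks and black ticks are summits. Peaks of both replicates are drawn for *Zfp142*, *Zfp113* and *Zfp41*, while *Zfp62* and *Zfp105* have a merged peak alone.

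The 9 genes differed in replicate support. *Zfp142*, *Zfp113* and *Zfp41* had peaks in both replicate lists, *Zfp445* and *Zfp768* in replicate 1 and not 2, *Zfp35* and *Zfp148* in replicate 2 and not 1, and *Zfp105* and *Zfp62* in neither. Over all protein-coding genes, 0.552% had a merged peak in the same window, 0.333% a replicate 1 peak and 0.369% a replicate 2 peak. Among the 391 Zfp-named genes these shares were 2.30%, 1.28% and 1.28%, and the genes bound were the 9 or a subset of them in every list. Counted as peaks, 4 of the 10 overlapped a peak of both replicates (40%), close to the 38.6% of all 140 merged peaks. A peak missing from a replicate list fell below the caller's threshold at that depth, and its reads there are not known.

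Peak strength covered most of the range of the merged list. Fold enrichment, the ratio of reads stacked at the summit to the local control background with 1 added to each, ran from 4.41 to 10.8 with a median of 8.06, against 7.56 over the other 130 peaks. The median width was 114 bp against 122.5 bp. Reads stacked at the summit (the pileup) were solved from the deposited values and ranged from 8 to 17 with a median of 12.5, against 12 elsewhere. The exact 95% Poisson intervals of any pair of the 10 pileups overlapped, so their order in reads was not resolved at this depth. These intervals cover counting error alone.

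**Figure D2:**
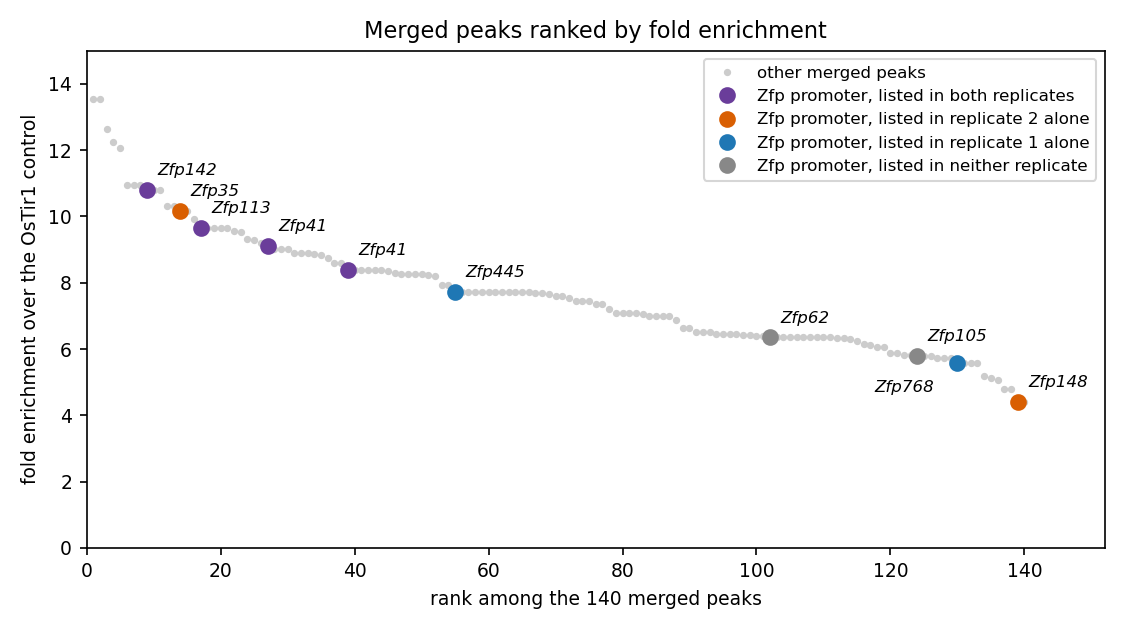
The 140 merged peaks ranked by fold enrichment over the OsTir1 control (y axis), with the peaks at the 9 genes coloured by the replicate lists that hold an overlapping peak. The peaks with support in both replicates lie at rank 39 or better, and the 4 weakest labelled peaks have support in at most 1 replicate.

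*Zfp142* had the strongest and broadest peak of the group. ZNF142, its human counterpart, has been linked to a neurodevelopmental disorder. The merged peak (chr1:74587755-74588334, 580 bp) had a fold enrichment of 10.8, rank 9 of 140, with 16 reads at the summit (95% interval 9.15 to 26.0). Its summit was 20 bp downstream of the nearest *Zfp142* TSS, in a UTR of that gene, and 7 of the 8 annotated TSSs of *Zfp142* lay in the peak. The nearest TSS of a coding transcript was 81 bp downstream of the summit.

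Replicate 1 divided this promoter into 2 peaks separated by 77 bp. The larger, 319 bp wide, had a fold enrichment of 10.1 and 12 reads, and the smaller, 88 bp wide, had 7.0 and 8 reads. Replicate 2 had a single peak of 309 bp with a fold enrichment of 9.29 and 11 reads, which spanned nearly the same bases as the larger peak of replicate 1. The replicates thus gave similar values over the TSSs, and the smaller downstream peak was listed in replicate 1 alone.

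The same peak covered the start of *Bcs1l*, which runs the other way and encodes a chaperone needed to complete mitochondrial complex III. The *Bcs1l* TSS nearest the summit lay 43 bp from that of *Zfp142*, and the summit was 63 bp upstream of it. Since both starts were inside 1 peak, the peak cannot be assigned to one gene. *Zfp142* also held the most matches of the group: ACCATAGAG occurred 2 times on its own strand and ACCATCGAG 2 times on the other, the strand of *Bcs1l*. ACCATCGAG lay within 50 bp of the summit. Windows as long as the 680 bp searched here held a 9-base spelling at 1.31% of coding TSSs, and a 6-mer at 42.2%.

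*Zfp35*, on chromosome 18, was second in strength, with support in one replicate. Its merged peak (positions 23989543 to 23989671, 129 bp) had a fold enrichment of 10.2, rank 14, and 15 reads (8.40 to 24.7). The summit was 41 bp upstream of the single annotated TSS. Replicate 2 held a peak of 138 bp with a fold enrichment of 10.1 and 12 reads, its summit 1 bp from the merged one. Replicate 1 listed none. *Zfp35* was thus the strongest of the 9 that lacked support in both replicates. Its peak held ACCATAGAG and CTAGAG, both on the strand of the gene and both within 50 bp of the summit.

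*Zfp113* had the third strongest peak, and its replicates placed the summit differently. The merged peak (chr5:138155517-138155985, 469 bp) had a fold enrichment of 9.66, rank 17, and 14 reads (7.65 to 23.5). Its summit was 18 bp downstream of the TSS, in the UTR. Replicate 1 had a peak at the TSS with a fold enrichment of 8.64 and 10 reads, and another of 50 bp farther downstream with 7.85 and 9 reads. Replicate 2 had a peak of 339 bp with a fold enrichment of 7.74 and 9 reads. The strongest replicate summits were 114 bp apart, inside the one merged peak. ACCATCGAG occurred 2 times and CTAGAG 1 time, all on the gene's strand and upstream of the summit.

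*Zfp41* was the only gene of the 9 with 2 merged peaks, and both were listed in each replicate. The upstream peak (chr15:75616333-75616700, 368 bp) had a fold enrichment of 8.39 and the highest pileup of the group, 17 reads (9.90 to 27.2), over a solved background of 1.15 reads. Its summit was 102 bp upstream of the nearest TSS. Replicate 1 gave 9.90 and 12 reads over 242 bp, and replicate 2 gave 9.85 and 12 reads over the same 368 bp as the merged peak. Both replicates thus gave this peak the same pileup.

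The downstream *Zfp41* peak (chr15:75616851-75616917, 67 bp) began 150 bp farther on. It had a fold enrichment of 9.12, above that of the upstream peak, with fewer reads (14, interval 7.65 to 23.5) over a solved background of 0.645 reads. The summit lay 150 bp downstream of its nearest TSS, in the UTR. That TSS was not the one nearest the upstream summit, and the merged summits lay 299 bp apart. The replicates again gave nearly the same values, 6.82 in replicate 1 and 6.78 in replicate 2, with 8 reads in each. In both replicate lists this was below the upstream peak (9.90 and 9.85), the reverse of the merged order. The replicate summits of the downstream peak were 2 and 5 bp from the merged one. The 4 copies of TAGAG all lay in the upstream peak, and the downstream peak held none of the letters searched.

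*Zfp445* and *Zfp105* were the one pair of neighbours among the 9: their starts lay 57.1 kb apart on chromosome 9, in opposite orientations, with no other Zfp-named coding gene between them. *Zfp445* had a merged peak (chr9:122865927-122866116, 190 bp) with a fold enrichment of 7.73 and 11 reads (5.49 to 19.7), its summit 44 bp upstream of the TSS. Replicate 1 listed it with 6.28 and 7 reads, and replicate 2 did not. It was the one gene with neither 6-mer and no spelling of the 9-base run in its peak or the 50 bp on each side.

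*Zfp105* was weaker (chr9:122923026-122923102, 77 bp), with a fold enrichment of 5.80, rank 124, and 8 reads (3.45 to 15.8). This was the lowest pileup of the group and tied for the lowest of the merged list. Its summit was 9 bp upstream of the TSS. Neither replicate listed it. CTAGAG lay just before the start of the peak, in the stretch shown above.

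*Zfp62* also rested on the merged list alone. Its peak (chr11:49203410-49203508, 99 bp) had a fold enrichment of 6.36, rank 102, and 9 reads (4.12 to 17.1), with the summit 1 bp downstream of a TSS, in the UTR. Of its 10 annotated TSSs 3 lay in the peak. ACCATCGAG began at the first base of the peak and neither 6-mer was found.

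*Zfp768* and *Zfp148* had the lowest fold enrichments, with as many reads as *Zfp445*. *Zfp768* (chr7:127345669-127345734, 66 bp) had 5.59, rank 130, from 11 reads over a solved background of 1.15 reads, and its summit was 129 bp upstream of the TSS. Replicate 1 gave 5.74 and 8 reads with the same summit, and replicate 2 listed none. *Zfp148* (chr16:33380755-33380829, 75 bp) had 4.41, tied for the lowest of all 140 merged peaks, with a −log10 q of 1.42. It too had 11 reads (5.49 to 19.7), over a solved background of 1.72 reads, 3.11 times the lowest background in the list.

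In replicate 2 the *Zfp148* promoter stood higher, at 7.25 with 9 reads over a background of 0.379 reads, and the summit was 52 bp upstream of the TSS in place of 10 bp. Replicate 1 listed none. The higher background in the merged list moved with the lower fold enrichment, and its part in it was not tested. *Zfp148* shared its promoter region with *1700007L15Rik*, a divergent long non-coding RNA gene with a TSS 109 bp away, outside the peak. Both promoters were rich in GC: within 500 bp of the TSS the share was 70.7% at *Zfp768* and 69.6% at *Zfp148*, against 47.7% to 63.0% at the other 7 genes and a median of 54.9% over coding genes. *Zfp148* held CTAGAG once in its peak, and at *Zfp768* one copy lay across the edge of the peak.

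**Figure D3:**
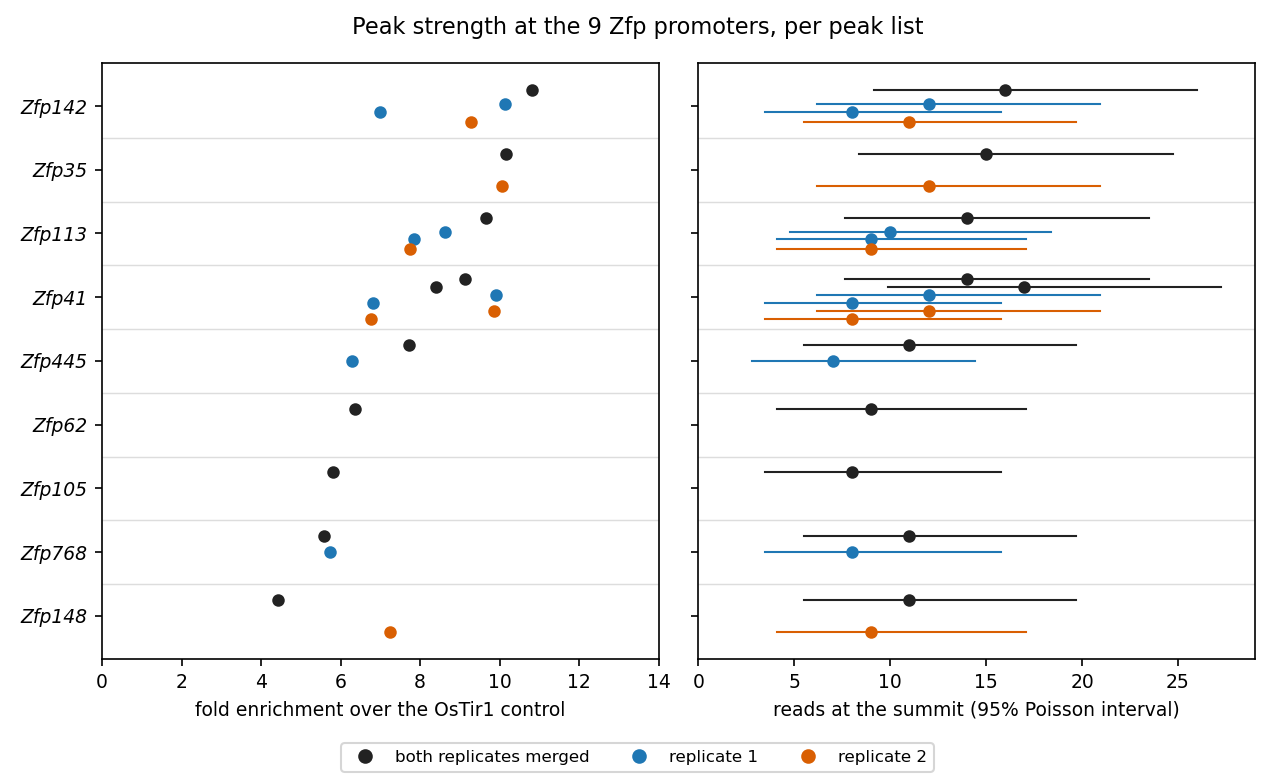
Fold enrichment over the OsTir1 control (left) and reads at the summit with exact 95% Poisson intervals (right) for every peak at the 9 genes, in the merged, replicate 1 and replicate 2 lists. Intervals overlap between all merged peaks, from 8 reads at *Zfp105* to 17 at *Zfp41*, and a missing point is a gene not listed.

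Replicate summits did not all fall on the merged summit. The distance between them was 3 bp (replicate 1) and 111 bp (replicate 2) for the strongest peaks at *Zfp113*, and 55 and 19 bp at *Zfp142*. At *Zfp41* it was 28 and 88 bp for the upstream peak and 2 and 5 bp for the downstream one. The summits of *Zfp35*, *Zfp445* and *Zfp768* in the one replicate that listed them were within 7 bp of the merged summit, and that of *Zfp148* was 42 bp away. Both short and long distances thus occurred among the genes supported by both replicates.

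**Figure D4:**
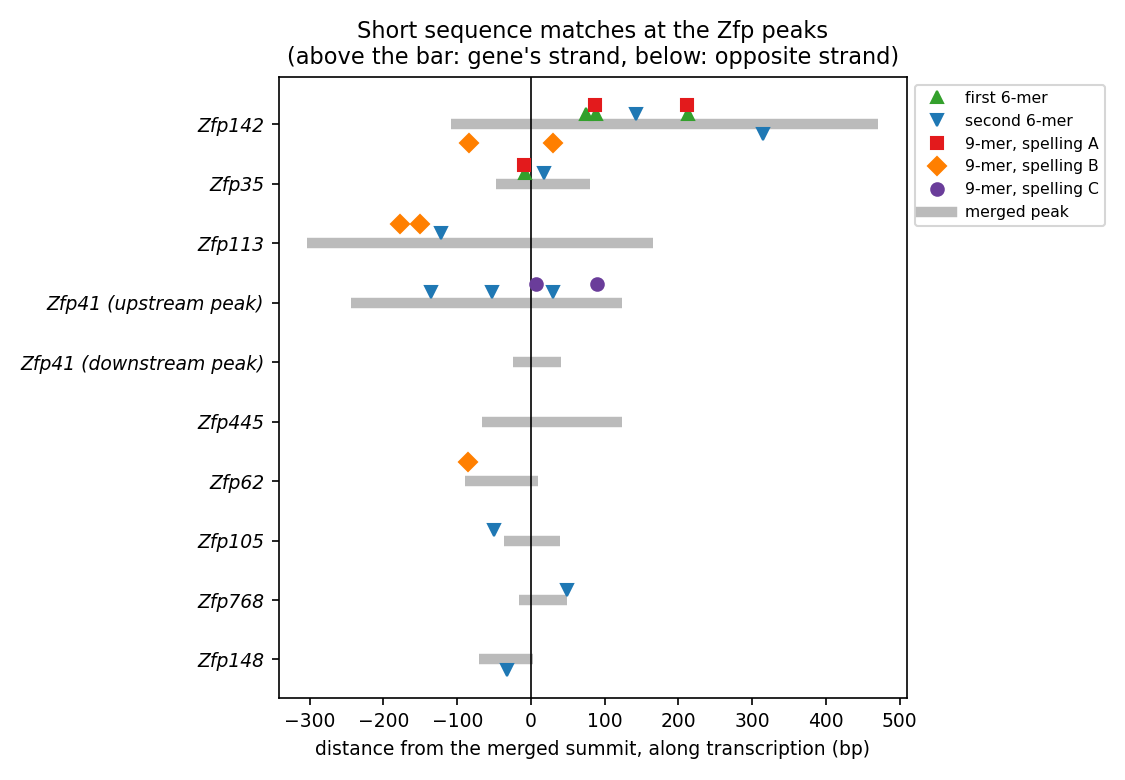
Matches to the first 6-mer (ATAGAG), the second (CTAGAG) and the 9-base spellings A (ACCATAGAG), B (ACCATCGAG) and C (ACCACCGAG) in each merged peak (grey bar) and 50 bp on each side of it. The x axis is the distance in bp from the merged summit along transcription, and marks above a bar are on the gene's strand. *Zfp142* holds 4 copies of the 9-base run, and *Zfp445* and the downstream peak of *Zfp41* hold no match.

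The 6-mers chosen on other peaks were found within 50 bp of the summit at 3 of the 9 genes, *Zfp148*, *Zfp35* and *Zfp41*, beside 46.9% of the other 130 summits and 7.24% of coding TSSs. Within 100 bp the counts were 6 of 9, 66.9% and 14%. In peaks extended by 50 bp, 7 of the 9 genes and 67.7% of the other peaks held one. The share of coding TSSs with either 6-mer rose to 55.9% in windows of 500 bp on each side, where all 9 genes had one, so that the wide window does not separate these promoters from others.

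The spelling ACCATCGAG was found in the peaks of *Zfp113*, *Zfp142* and *Zfp62*. Within 100 bp of the summit it occurred at 2 of the 9 genes, *Zfp142* and *Zfp62*, at 3 of the other 130 summits (2.31%) and at 0.0595% of coding TSSs. The spelling was noticed at these promoters. Some 9-base spellings were followed on the same strand, within 40 bp, by TAGAG or AGAGCGG, letters picked after the sequences had been read. This held for 1 of 2 copies at *Zfp113* (31 bp from first base to first base), for the single copies at *Zfp35* (29 bp) and *Zfp62* (27 bp), and for 2 of 2 at *Zfp41* (25 and 22 bp). At *Zfp142* it held for 0 of 4 copies, and at the other merged peaks for 17 of 41, at 17 to 40 bp. A match says that the letters are there, and no match that they are not in the window searched.

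Most of the nearest Zfp-named genes on the chromosome were not listed. *Zfp35* lay 34.9 kb from *Zfp397* and 31.2 kb from *Zfp24*, and *Zfp768* lay 30.5 kb from *Zfp747* and 101.3 kb from *Zfp771*, none of which had a merged peak. The nearest Zfp-named neighbours of *Zfp113*, *Zfp41*, *Zfp62*, *Zfp142* and *Zfp148* were 286 kb or farther away. One non-coding Zfp-named gene, the transcribed pseudogene *Zfp389*, also had a merged peak and was named after its value was seen. Among other zinc-finger names, 3 of 19 Zscan genes, 4 of 11 Zkscan genes and 0 of 41 Zbtb genes had a merged peak.

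The proteins encoded by the 9 genes had no single architecture. Translated from the longest annotated coding sequence, they held from 4 to 36 matches to the C2H2 pattern, with a median of 11, against a median of 10 over the other 382 Zfp-named proteins. Zfp142 had 36 in 1843 residues, more than any other Zfp-named protein. Zfp62 had 25 and Zfp35 17. Zfp445 had 12, Zfp105 11, Zfp768 10 and Zfp113 8, near the middle of the family. Zfp148, with 4 in 794 residues, and Zfp41, with 4 in 198 residues, had the fewest.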

How the data were processed

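Groups and replicate numbers came from the sample labels. The authors sequenced single ends of 50 bp, mapped unique reads to mm10 with Bowtie 0.12.9 and called peaks with MACS2 2.1.2.1 per replicate and on both replicates merged, with parental samples as background (versions per the labels' processing notes). The deposited columns used were the fold enrichment (ratio over background, with 1 added to both), the −log10 p-value and q-value, and the summit. A peak below the caller's threshold is not listed.

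Fold enrichment and p-value together gave pileup and background, through the upper tail of the Poisson distribution. All pileups lay within 0.05 of a whole number, 0.00125 at most. Peaks overlapping 500 bp on each side of any GENCODE M21 TSS were taken (at least 1 bp). Depths rest on the genome size MACS2 uses and on 50 bp covered per read. The stated extension size was longer. Sequence came from RefSeq GRCm38 by pysam 0.24.0. C2H2 matches were counted in translated GENCODE coding sequences, not in RefSeq proteins. Scripts were tested on simulated data.

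The members and lists were chosen with earlier results of these data known. No test was run, because the peaks chose the genes. Named were all 9 genes, genes sharing their promoters, their nearest Zfp-named neighbours and Zfp574. Alternatives were promoter windows, TSS sets, peak thresholds, single replicates, the overlap required, the pseudocount and the windows searched for sequences.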

Additional observations from a re-analysis of the deposited data

How the results depend on the processing

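All 9 genes kept a merged peak in windows of 100, 250 and 1000 bp, with protein-coding TSSs alone and with the outermost TSS alone, and 8 did at a fold enrichment of at least 5, where *Zfp148* was lost. At a −log10 q of at least 5 the genes fell to 5 and their peaks to 6, without *Zfp105*, *Zfp148*, *Zfp62* and *Zfp768*, the median fold enrichment was 9.39 and the median pileup 14.5. With either replicate alone 5 genes were left (5 also of all Zfp-named genes), with 6 to 8 peaks. Support in both replicates held for 2 to 3 genes. The median pileup was 8.5 to 10 reads in the replicate lists, 14 at a fold enrichment of at least 5, 11 with the strongest peak of each gene, and 21.4 with a pseudocount of 0, under which 16.4% of the solved pileups were whole. The median fold enrichment was 7.43 without replicate 2 and 8.52 without replicate 1. The median signed distance from summit to TSS, −9.5 bp, reversed to 19.5 bp without replicate 2 and was −20.5 bp without replicate 1, so no side of the TSS was preferred in every list. Counting protein-coding genes alone left 1 shared promoter. The 6-mers were found at 6 genes within 100 bp of the summit, at 5 in the peak itself and at 9 within 500 bp of any TSS. In windows chosen after seeing the data, they were found at 7 in peaks extended by 50 bp. The 9-base run was in 5 peaks. The causes were not tested. Of 55 values under alternatives, 34 stayed within the limits set for the same value. No paired analysis was possible because the results are descriptions of peak lists and come from no test. With 8 to 17 reads at each summit, depth did not resolve the order of the pileups.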
